A study of Rattus norvegicus with 24 samples.

Results

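Sperm DNA methylation was described at 341 rat gene-body regions that differed with age and already carried at least 10% methylation in control animals at postnatal day (PND) 65. The regions were chosen by measured values from the authors' list of 5327 age regions. Members were at most 10000 bases long, lay inside a gene by the authors' annotation, and had a control PND65 level of at least 10%. They made up 6.40% of the listed regions and 10.0% of the 3409 gene-body regions of that length. The other gene-body regions comprised 811 with a control PND65 level of 2 to under 10% and 2257 with a level under 2%. A further 636 gene-body regions with a control PND65 level of at least 10% exceeded 10000 bases and were left out. The members lay in 333 genes, of which 326 held 1 member, 6 held 2, and Ccdc40 held 3.

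Motile sperm of the cauda epididymis came from 24 male Wistar rats in 4 groups of 6: offspring of BDE-47-fed dams at PND120 and at PND65, and offspring of vehicle-fed dams (controls) at PND120 and at PND65. BDE-47 is a brominated flame retardant; dams were given 0.2 mg/kg per day in corn oil, or the oil alone, from pregnancy day 8 to PND21. All sperm was collected by swim-up and passed through a density gradient against somatic cells, and 1 random male of each litter was taken at each age, so no group held littermates, while animals of different ages in an arm could be littermates. Methylation was read by reduced representation bisulfite sequencing, which samples CpG-rich restriction fragments. The authors deposited 1 methylation level per group and region, so no spread between animals and no test over animals can be given, and the read depth of a region is unknown beyond the authors' minimum of 10 reads per CpG.

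DNA methylation in mammals is placed mainly on cytosines followed by guanine (CpG) by DNA methyltransferases. In mature sperm most CpGs between and within genes are highly methylated, while CpG islands, which often span gene starts, are mostly free of it. Methylation inside a transcribed gene and methylation at its start are known to relate differently to transcription, and the deposited table does not say whether a region lies on an exon, an intron or a start site.

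The start-site windows of the genes with the largest methylation gain and the largest loss in controls are given as examples of member genes. Both are RefSeq windows of assembly GRCr8, from 250 bases before to 50 bases after the gene start, with each CG in capitals. Whether the listed rn6 regions reach these windows is not known.
Lrrc8e, chr12:7375897-7376196, plus strand: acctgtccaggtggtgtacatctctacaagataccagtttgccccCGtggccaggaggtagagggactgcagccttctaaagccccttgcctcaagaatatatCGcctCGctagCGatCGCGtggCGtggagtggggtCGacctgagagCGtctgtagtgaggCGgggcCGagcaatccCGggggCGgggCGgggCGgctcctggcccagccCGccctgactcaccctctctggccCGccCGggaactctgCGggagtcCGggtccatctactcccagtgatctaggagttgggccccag
Rab20, chr16:84721177-84721476, plus strand: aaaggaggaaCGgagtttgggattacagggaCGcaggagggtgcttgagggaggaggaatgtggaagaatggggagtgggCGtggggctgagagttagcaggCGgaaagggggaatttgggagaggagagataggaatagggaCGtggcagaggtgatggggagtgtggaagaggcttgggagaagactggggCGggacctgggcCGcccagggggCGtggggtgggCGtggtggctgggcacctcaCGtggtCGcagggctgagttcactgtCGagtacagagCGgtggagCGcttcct
The Lrrc8e window held 20 CG and 3 copies of CCGG, the recognition letters of the restriction enzyme MspI that is usual for this assay. The Rab20 window held 14 CG and 0 copies of CCGG. The ratio of observed to expected CG was 0.632 for Lrrc8e and 0.702 for Rab20. The authors' table places Lrrc8e on the minus strand of rn6, whereas GRCr8 has it on the plus strand. Of the 333 member genes, 306 matched a current symbol and 14 an older one, and 246 had a window. These 246 windows held a median of 22 CG, against 24 CG in 1409 windows of genes with a listed gene-body region under 2% and no member, and 7 CG in all 27457 windows. CCGG was present in 87.8% of the member windows, in 88.6% of the windows of the under-2% genes, and in 53.0% of all windows; it reads the same on both strands.

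Members were of mixed length, with 145 of at most 1000 bases and 196 longer ones. Their median length was 2199 bases, against 141 bases at the 2 to under 10% regions and 89 bases at the under-2% regions. They nevertheless held a similar number of CpGs, a median of 5 against 4 in each of the other classes. The median was 0.339 counted CpGs per 100 bases in the members, against 3.19 and 4.82 in the 2 to under 10% and under-2% classes. The authors' count may hold only CpGs read by the assay, so this ratio may differ from the CpG density of the sequence. In all, the members held 2192 CpGs. Dapk3, a death-associated protein kinase, Bmp7, a growth factor of the bone morphogenetic protein family, and Ccdc40, which is needed to assemble motile cilia and flagella, had the most CpGs with 23 in 1 region. Length and this ratio were not used to choose the members beyond the limit of 10000 bases, and both moved with methylation level. Length is the divisor of the ratio, so they are not separate observations.

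**Figure D1:**
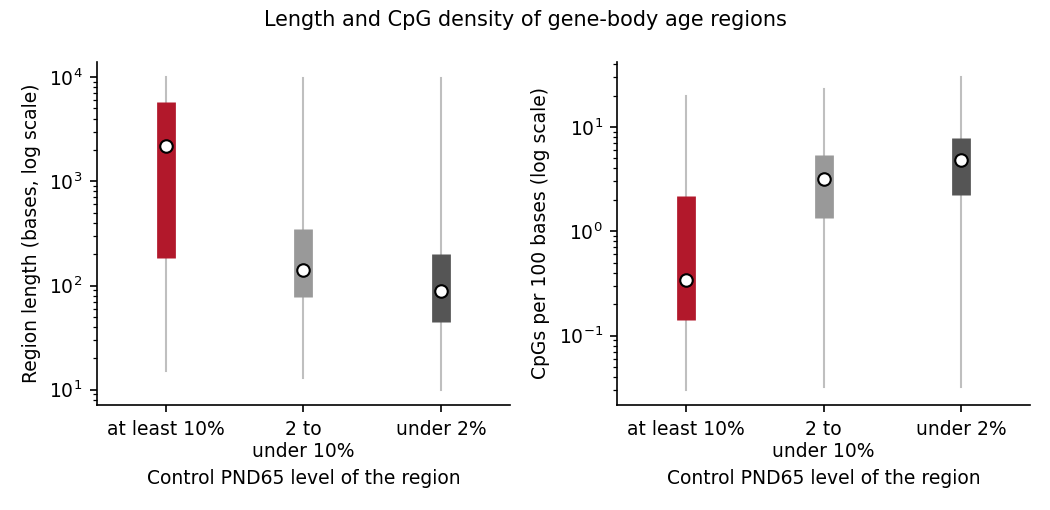
Length in bases (left) and CpGs per 100 bases (right), both on log axes, of gene-body regions by control PND65 level. Circles are medians, thick bars quartiles and thin lines the full range; members (at least 10%) had a median of 2199 bases against 141 and 89 bases in the lower classes.

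Among the autosomes, the share of gene-body regions that were members was highest on chromosome 7 (16.3%, 39 of 239), followed by chromosomes 8 (14.2%), 20 (14.1%) and 16 (13.9%). It was lowest on chromosome 14 (3.39%, 4 of 118). Chromosome X had 13 gene-body regions, of which 3 were members, among them Nlgn3, a postsynaptic adhesion molecule, and Tsc22d3, a glucocorticoid-induced leucine zipper protein. Neighbouring members are not independent, and no test of these shares was made.

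In controls the members were more methylated at PND120 than at PND65. Over the 341 members the median level was 27.4% in PND120 controls, against 18.3% in PND65 controls, and the median of the single differences was 8.62 points (quartiles 6.80 and 11.2). A gain or loss is counted here where the group values differ by at least 5 points, the authors' own minimum change. By that count 332 members gained in controls, where 99.1% of all listed regions did. Another 7 members lost, against 0.676% of all listed regions. Since this contrast was used in making the list and in choosing the members, nothing is read from these counts. The remaining members, Ripply3 and Bcl9l, differed by only 3.31 and 4.34 points in controls. Their BDE-47 differences were larger in size, -5.15 points at Ripply3, a developmental transcriptional regulator, and 5.77 points at Bcl9l, a cofactor of beta-catenin. The list was made from the contrasts of both arms, so a region can be listed for its BDE-47 difference. Nothing is read from these larger differences either.

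In BDE-47 animals the ages differed by under 5 points at most members. The median level was 24.4% in BDE-47 animals at PND120 and 24.5% in BDE-47 animals at PND65, and the median age difference was 0.0653 points (quartiles -0.811 and 1.70). The size of the age difference, regardless of sign, had a median of 1.08 points in BDE-47 animals, against 8.74 points in controls; over all listed regions the BDE-47 median was smaller, 0.728 points. It was under 1 point at 162 members (47.5%), against 63.3% of all listed regions, and under 5 points at 287 (84.2%), against 96.5%. The BDE-47 difference was the smaller of the pair at 326 members, or 95.6%, and at 98.9% of all listed regions. Only 11 listed regions differed by under 5 points between ages in controls, so control differences are large by the making of the list. Nothing is therefore read from the difference in size between the arms. By sign, 179 members were higher at PND120 in BDE-47 animals and 162 were lower. The share higher was 52.5% among the members and 32.8% over all listed regions.

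A minority of members did gain in both arms. BDE-47 animals gained at least 5 points at 43 members (12.6%, exact 95% interval 9.28 to 16.6 over regions), where 2.57% of all listed regions did. At 42 of these (12.3%, 9.02 to 16.3) controls gained as well, against 2.5% of all listed regions. Joint gains were seldom met in the less methylated gene-body classes, with 2 of 811 regions at 2 to under 10% and 4 of 2257 under 2%. Longer gene-body regions of the members' level class were alike in this. Joint gains and joint losses together made up 13.8% of members. Without the length limit they made up 12.6% of 977 gene-body regions with a control PND65 level of at least 10%, members included. The BDE-47 gain was the larger one at 9 of the 42. Losses of at least 5 points occurred in BDE-47 animals at 11 members (3.23%), against 0.976% of all listed regions. Both arms lost at 5 members (1.47%), against 0.394%. A group under 5% at PND65 cannot lose 5 points, and the median control PND65 level over all listed regions was 0.936%. The members' shares of losses are therefore not comparable with those over the whole list. The arms' age differences had a Pearson r of 0.665 and a Spearman rho of 0.250 over the 341 members. Without Lrrc8e these were 0.607 and 0.243, and over the 334 members higher at PND120 in controls they were 0.578 and 0.203. All points share the same 24 animals and the list was made from these contrasts, so the coefficients only describe the plot of age differences in both arms.

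**Figure D2:**
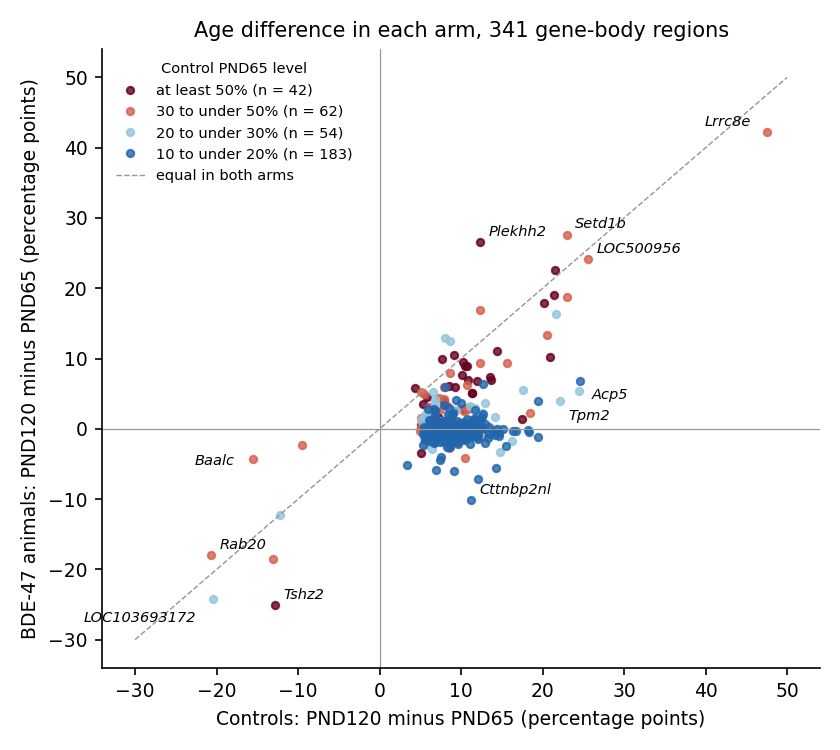
Age difference in BDE-47 animals (vertical, percentage points) against that in controls (horizontal, percentage points) for the 341 members, each point 1 region coloured by its control PND65 level. Most points lie along the zero line of BDE-47 animals, while regions such as Lrrc8e, Setd1b and LOC500956 lie near the dashed line of equal differences.

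Joint gains concentrated in the most methylated members. In the class with a control PND65 level of at least 50%, 20 of 42 regions gained in both arms (47.6%). The count was 13 of 62 at 30 to under 50%, 6 of 54 at 20 to under 30%, and 3 of 183 at 10 to under 20% (1.64%). The median BDE-47 age difference followed the same order, with 4.80, 0.682, -0.0792 and -0.184 points from the highest to the lowest class. Controls showed no such order, with medians of 9.24, 8.00, 8.41 and 8.74 points.

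Region length moved with the class and was examined beside it. The 10 to under 20% class had a median length of 235 bases, while the classes of at least 50%, 30 to under 50% and 20 to under 30% had 4548.5, 4819.5 and 4878.5 bases. Among members over 1000 bases, 28 of 93 with a level of at least 30% gained in both arms, and 7 of 103 below 30% did. Among members of at most 1000 bases the counts were 5 of 11 and 2 of 134. The class of at most 1000 bases and at least 30% is small, and the part of length in the pattern was not tested. Of the 67 members with at least 10 CpGs, whose levels rest on more positions, 17 gained in both arms. The control PND65 level that forms the classes also enters the control difference, and the classes were drawn after the values had been seen.

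**Figure D3:**
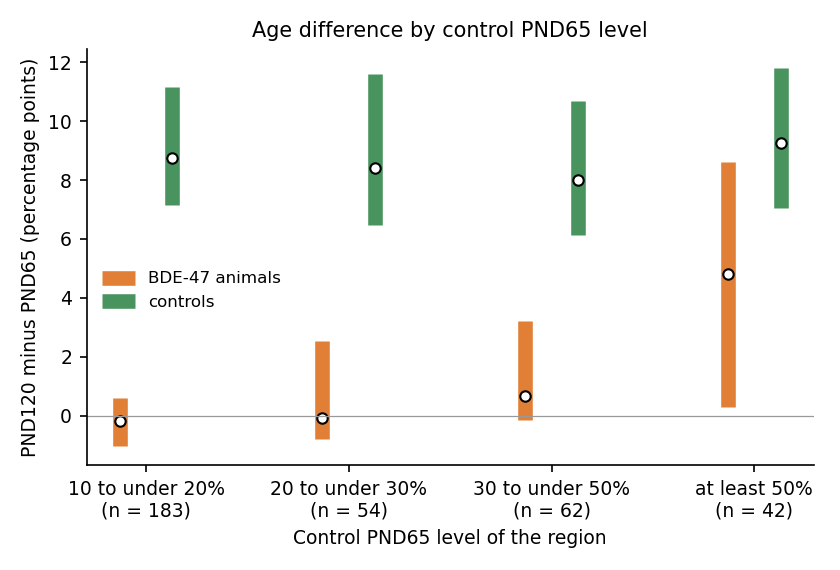
Age difference, PND120 minus PND65 in percentage points, by class of control PND65 level in BDE-47 animals (left bar of each pair) and controls (right bar). Circles are medians and bars quartiles over regions; the BDE-47 median was 4.80 points in the class of at least 50% and -0.184 points in the lowest class.

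The largest gain was at Lrrc8e, which encodes a subunit of volume-regulated anion channels. The region, chr12:2558530-2563993 in rn6, covers 5463 bases and 14 CpGs. Its level was 82.1% at PND120 and 39.8% at PND65 in BDE-47 animals, and 84.1% at PND120 and 36.6% at PND65 in controls. The ages were far apart in each arm, by 42.2 points in BDE-47 animals and 47.5 points in controls, and the arms were close at each age. The member in Lrrc8a, the obligatory subunit of the same channels, covered 16 bases and behaved otherwise. There the levels were 19.4% and 20.8% in BDE-47 animals at PND120 and PND65, and 20.4% and 14.7% in controls.

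Other members with large gains in both arms lay in genes of unrelated roles. At Setd1b, a histone methyltransferase (chr12:38862399-38865609, 12 CpGs), the level was 62.2% at PND120 and 34.6% at PND65 in BDE-47 animals, and 62.6% and 39.6% at these ages in controls. LOC500956, known only by its locus number, with 22 CpGs in its region, had 59.1% and 35.0% at PND120 and PND65 in BDE-47 animals, and 57.4% and 31.8% in controls. At both loci the difference between the ages was larger than the difference between the arms. At Fbxo41, an F-box protein gene, the PND120 and PND65 levels were 82.3% and 63.4% in BDE-47 animals, and 86.0% and 64.6% in controls. Gltp, the glycolipid transfer protein gene, had 84.9% and 67.0% at PND120 and PND65 in BDE-47 animals, and 85.7% and 65.6% in controls. The Dapk3 region, with 23 CpGs, had 44.7% and 28.4% in BDE-47 animals at PND120 and PND65, and 47.7% and 26.1% in controls. Tbx3, a T-box factor of limb and mammary development, had among the most counted CpGs for its length of these, with 21 CpGs in 481 bases. Its level was 63.1% and 49.8% at PND120 and PND65 in BDE-47 animals, and 64.1% and 43.6% in controls.

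At some members with gains the arms differed in the size of the gain or in level. Plekhh2 gained more in BDE-47 animals, where the level was 88.9% at PND120 and 62.3% at PND65, than in controls, where it was 81.7% and 69.3%. Tsc22d3 gained 22.6 points in BDE-47 animals and 21.5 points in controls, but from levels about 15 points apart: 65.4% and 42.9% at PND120 and PND65 in BDE-47 animals, and 79.9% and 58.4% in controls. The reverse, a gain mainly in controls, was seen at Acp5, the tartrate-resistant acid phosphatase of osteoclasts. Acp5 had 32.7% and 27.3% at PND120 and PND65 in BDE-47 animals, and 53.3% and 28.9% in controls. Tpm2, a muscle tropomyosin, had 37.1% and 33.1% in BDE-47 animals at PND120 and PND65, and 46.1% and 23.9% in controls. Nlgn3 had 31.1% and 27.2% in BDE-47 animals and 36.2% and 16.7% in controls. At Tpm2 and Nlgn3 both BDE-47 levels lay between the control levels.

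Losses with age were few: of the 7 members with a control loss 5 also lost in BDE-47 animals. Of the 11 members with a BDE-47 loss, those 5 were shared, 5 gained in controls, and Ripply3 had the control difference given above. Rab20, a small GTPase of endosomal and phagosomal traffic (chr16:83358485-83359847, 3 CpGs), had 26.7% at PND120 and 44.6% at PND65 in BDE-47 animals, and 26.2% and 46.8% in controls. LOC103693172, known only by its locus number, with 10 CpGs in its region, had 7.46% and 31.7% at PND120 and PND65 in BDE-47 animals, and 6.00% and 26.4% in controls. Wnt3, a secreted Wnt ligand, had 7.44% and 19.7% in BDE-47 animals at these ages, and 8.48% and 20.7% in controls. At Rab20 and Wnt3 the arms were closer to each other at PND65 than at LOC103693172. Tshz2, a zinc-finger homeobox factor, lost more in BDE-47 animals, with 50.9% and 76.0% at PND120 and PND65 against 65.9% and 78.8% in controls. One Anks1b region, in a gene for a postsynaptic adaptor, had 25.4% and 43.9% in BDE-47 animals and 29.8% and 42.8% in controls. Baalc and Pax2, a paired-box factor of kidney and urogenital development, lost at least 5 points in controls alone. Baalc had 27.2% and 31.4% at PND120 and PND65 in BDE-47 animals, and 28.2% and 43.6% in controls. Pax2 had 27.7% and 30.0% in BDE-47 animals, and 23.7% and 33.3% in controls.

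The arms moved in opposite directions at 5 members (1.47%), with a loss in BDE-47 animals and a gain in controls. Over all listed regions the share was 0.451%, but regions under 5% in BDE-47 animals at PND65 cannot show such a loss. The 5 members lay in Cttnbp2nl (3 CpGs), Epha7 (4 CpGs), Cacna1g (8 CpGs), Lsamp (3 CpGs) and Smarcd2 (3 CpGs). Most of these levels thus rest on few positions. At Cttnbp2nl the level was 20.3% at PND120 and 30.5% at PND65 in BDE-47 animals, and 25.8% and 14.6% in controls. At Epha7, an ephrin receptor of axon guidance, it was 27.0% and 34.1% in BDE-47 animals, and 25.8% and 13.6% in controls. All 5 regions were between 11.6% and 18.0% methylated in PND65 controls, and 3 of them were at most 1000 bases long.

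The members with the highest control PND65 levels, Tshz2 apart, lay between 86.3% and 94.7% at PND120 in either arm. Stk10, a serine/threonine kinase of lymphocytes, had 91.9% and 89.0% at PND120 and PND65 in BDE-47 animals, and 94.7% and 84.4% in controls. Spry1, an inhibitor of growth factor receptor signalling with 15 CpGs in its region, had 91.2% and 82.3% in BDE-47 animals, and 92.7% and 82.2% in controls. Drc1, a subunit of the nexin-dynein regulatory complex of cilia and sperm flagella, had 91.5% and 85.6% in BDE-47 animals, and 91.0% and 81.8% in controls. Ybey, a mitochondrial RNA-processing enzyme, had 86.3% and 85.3% in BDE-47 animals, and 89.2% and 81.0% in controls.

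**Figure D4:**
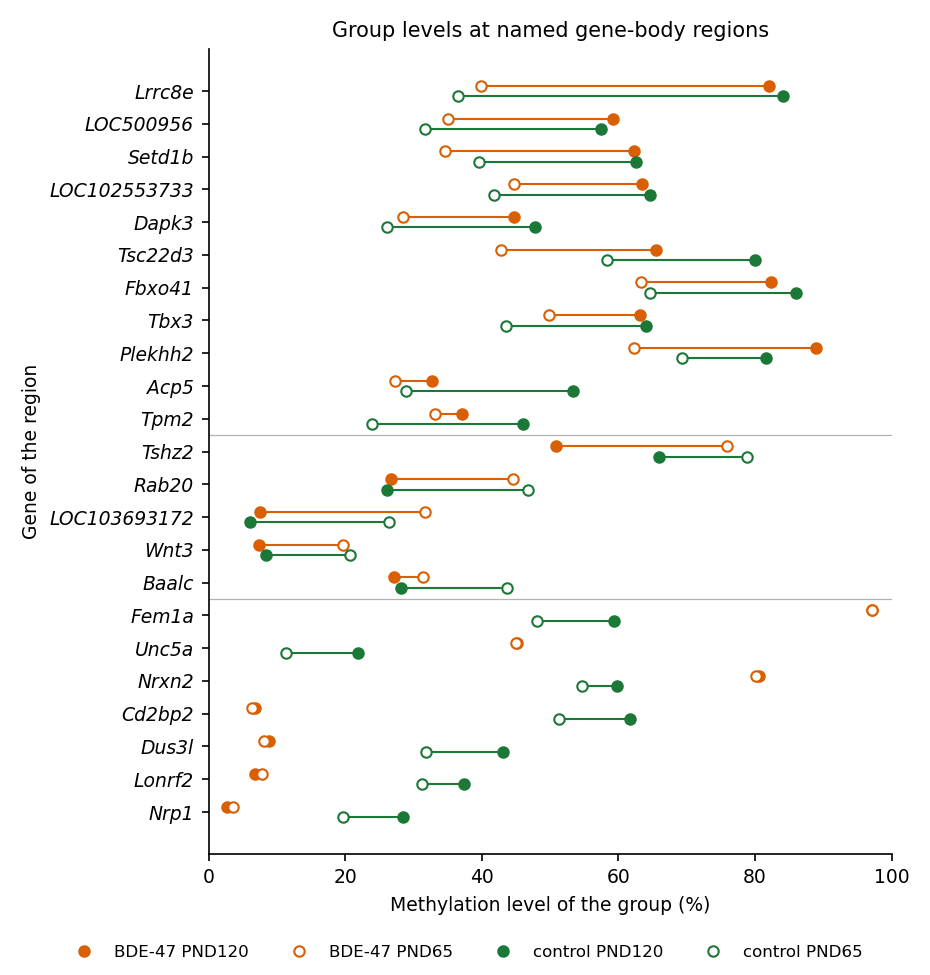
Methylation level (percent) of the 4 groups at named members, with BDE-47 animals above controls in each row and a line joining PND120 (filled) to PND65 (open). The upper block holds gains, the middle block losses such as Rab20 and Wnt3, and the lower block regions such as Fem1a where the arms were apart at both ages; where a filled circle is hidden, the open one covers it.

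The BDE-47 level was usually between the control levels of the 2 ages. It was below the control level at PND120 at 276 members, or 80.9%, where 90.2% of all listed regions were. It was also above the control level at PND65 at 276 members, against 93.7% of all listed regions. The BDE-47 PND120 level lay between the control levels at 66.0% of members (225), against 84.8% of all listed regions, and the BDE-47 PND65 level at 66.3% (226), against 84.4%. The median BDE-47 minus control difference was -3.54 points at PND120 and 4.46 points at PND65. These differences use the same control values as the control age difference, so the counts are not separate evidence.

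A set of 29 members had arms at least 10 points apart, in the same direction, at both ages. BDE-47 levels were higher at 17 of them (4.99% of members), against 1.84% of all listed regions, and lower at 12 (3.52%), against 1.05%. A region below 10% in PND65 controls cannot lie 10 points lower, so the members' count of lower regions is not comparable with that over the whole list. Over the 1161 listed regions with a control PND65 level of at least 10%, members included, the shares were 4.91% higher and 4.82% lower, near those of the members. The age difference in BDE-47 animals was under 2 points in size at 20 of the 29. The set was long, with a median of 3806 bases, and 22 of its regions exceeded 1000 bases.

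Fem1a, a substrate receptor of a ubiquitin ligase, stood farthest above the controls. Its region (chr9:10797377-10800383, 5 CpGs) had 97.0% and 97.1% at PND120 and PND65 in BDE-47 animals, and 59.3% and 48.1% in controls. Unc5a, a netrin receptor, had 45.2% and 45.0% at these ages in BDE-47 animals, and 21.8% and 11.4% in controls. Nrxn2, a presynaptic adhesion molecule, had 80.5% and 80.1% in BDE-47 animals, and 59.8% and 54.7% in controls. In each of these regions the BDE-47 values hardly differed between ages, and only the control values did. Mtmr12, an inactive myotubularin, had 50.2% and 50.3% in BDE-47 animals, and 36.1% and 22.6% in controls. Cnnm2, a gene of magnesium handling, had 35.1% and 32.6% in BDE-47 animals within 34 bases, and 17.4% and 10.5% in controls. Kxd1, a component of a lysosome-positioning complex, differed from these in that both arms gained. It had 78.2% and 61.2% at PND120 and PND65 in BDE-47 animals, and 57.7% and 45.4% in controls.

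Cd2bp2, which encodes a splicing-associated protein that binds the tail of CD2, stood farthest below. Its region (chr1:198639280-198642398, 3 CpGs) had 6.80% and 6.35% at PND120 and PND65 in BDE-47 animals, and 61.6% and 51.2% in controls. Dus3l, a tRNA-modifying dihydrouridine synthase with 11 CpGs in its region, had 8.81% and 8.19% in BDE-47 animals, and 43.1% and 31.8% in controls. Lonrf2, a RING-finger protein, had 6.76% and 7.89% in BDE-47 animals, and 37.4% and 31.3% in controls. Nrp1, a receptor for semaphorins and vascular growth factor, had 2.63% and 3.59% in BDE-47 animals, and 28.5% and 19.7% in controls. The BDE-47 levels at these loci were under 10% at each age. The Dus3l and Fem1a regions lie 497283 bases apart on chromosome 9 and differed in opposite directions. How many litters stand behind such a gap cannot be told from a single value per group.

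**Figure D5:**
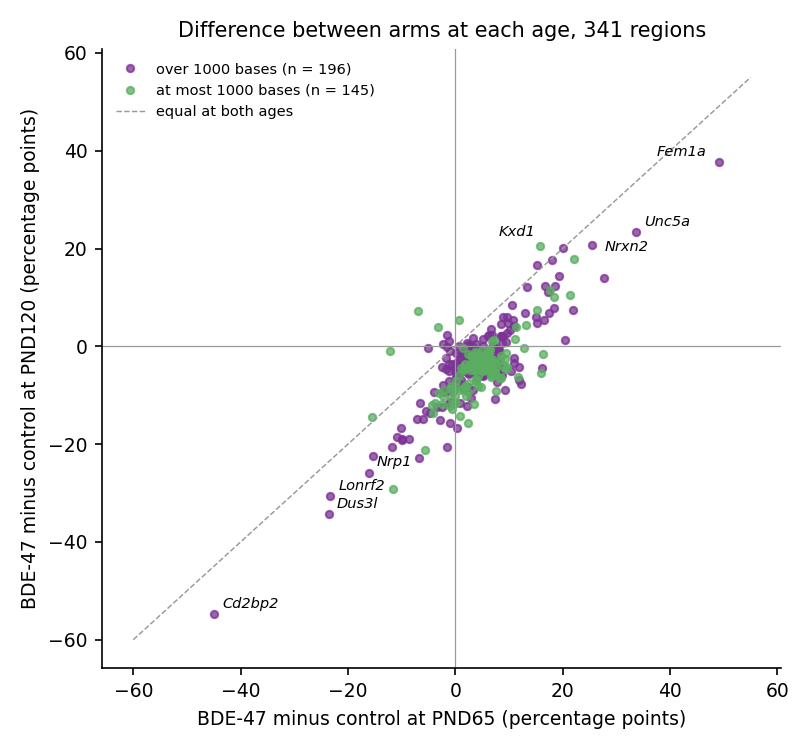
BDE-47 minus control level at PND120 (vertical, percentage points) against the same at PND65 (horizontal, percentage points) for the 341 members by region length. Most points fall below the dashed line of equal differences, and Fem1a (37.7 and 49.0 points at PND120 and PND65) and Cd2bp2 (-54.8 and -44.9 points) mark the ends.

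None of the 341 members shared a base with any of the 30 regions that the authors list for exposure, 9 at PND120 and 21 at PND65. Over all 5327 listed regions 1 did, so the members' 0 is near the share of the whole list (0.0188%). The nearest exposure region was 120133 bases from a member. The members without overlap include 7 with arms at least 20 points apart at both ages. The smallest change among the exposure regions was 5 points. Why the authors' exposure list does not hold these 7 members was not tested. The exposure list shared 0 genes with the members and 5 with the whole age list.

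Genes with several members showed that neighbouring regions need not behave alike. Ky, a muscle protein gene, held adjoining members 15 bases apart. The long one, of 7223 bases, had 33.5% and 33.6% at PND120 and PND65 in BDE-47 animals, and 26.1% and 11.7% in controls. The short one, of 65 bases, had 16.3% and 17.4% in BDE-47 animals, and 19.2% and 13.5% in controls. The arms were in opposite order at PND120 in these adjoining regions. In Ccdc40, members 147 bases apart also had unlike levels, with 12.2% and 12.9% in BDE-47 animals and 24.3% and 13.9% in controls over 91 bases. The next Ccdc40 region, of 8751 bases, had 42.3% and 40.1% at PND120 and PND65 in BDE-47 animals, and 37.5% and 24.9% in controls. Cacna1g, the pore subunit of a T-type calcium channel, held members 8940 bases apart. One had 15.4% and 21.4% in BDE-47 animals, and 27.1% and 18.0% in controls; the other had 60.0% and 63.4% in BDE-47 animals, and 62.1% and 57.0% in controls. Both were lower at PND120 in BDE-47 animals and higher at PND120 in controls.

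In 96 genes a member was found beside a listed gene-body region under 10%. The 101 members of these genes had median levels of 23.2% and 22.6% at PND120 and PND65 in BDE-47 animals, and 25.8% and 16.0% in controls. The 126 less methylated regions of the same genes had 6.54% and 7.25% in BDE-47 animals, and 11.3% and 0.595% in controls. Control age differences were alike in size, with medians of 9.05 points at the members and 9.75 points at the others. Lengths were not, with medians of 1023 and 98.5 bases.

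Of the 341 members, 107 fell in 15 gene families defined by symbol. Such lists miss some genes of a kind and can hold others, so each count covers the list alone. Joint gains in a family stand beside shares of 12.3% over the members and 2.5% over all listed regions, and control gains beside 99.1% of all listed regions, from which nothing is read. With so few members in each family, most counts are near what the share over the members gives. All 5 members among chromatin and DNA methylation modifiers gained in controls and 3 gained in both arms. Beside Setd1b, this family held Jade2, a scaffold of histone acetylation, with 23.9% and 24.1% at PND120 and PND65 in BDE-47 animals, and 27.2% and 17.0% in controls. It also held Smarcd2, a chromatin-remodelling subunit, with 24.5% and 30.1% in BDE-47 animals, and 32.1% and 17.9% in controls. Of 12 members among homeobox, paired-box, forkhead, Sox and T-box factors, 10 gained and 2 lost in controls, while 2 gained in both arms and 1 lost in both. In the Wnt, Hedgehog, BMP, FGF and Notch family, 4 of 5 members gained and 1 lost in controls, with 2 joint gains and 1 joint loss. Wnt10b, a ligand like Wnt3, went the other way from it, with 62.3% and 52.9% at PND120 and PND65 in BDE-47 animals, and 56.4% and 44.1% in controls.

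None of the 11 members in the zinc-finger list gained in both arms, and none of 9 in the sperm-function list. The same held for 3 listed solute carriers and 4 listed adhesion and matrix genes. Outside these lists, Drc1 and the zinc-finger gene Hinfp did gain in both arms. Hinfp had 67.4% and 57.4% at PND120 and PND65 in BDE-47 animals, and 66.2% and 58.6% in controls. In the list of kinases and phosphatases 1 of 11 gained in both arms, Dapk3. Members outside that list also did, among them the kinase gene Dyrk2 and the phosphatase gene Acp5. Dyrk2 had 74.5% and 63.4% at PND120 and PND65 in BDE-47 animals, and 74.5% and 60.1% in controls. Among small GTPases and their regulators 1 of 11 gained and 1 lost in both arms. Of the 3 members in nuclear receptor and hormone genes, Rarg, a retinoic acid receptor, gained in both arms. It had 93.6% and 88.6% at PND120 and PND65 in BDE-47 animals, and 86.9% and 75.5% in controls. Nr5a1, the steroidogenic factor, had 8.88% and 8.62% in BDE-47 animals, and 18.5% and 11.7% in controls. Exosc4, a subunit of the RNA exosome, was 1 of 2 joint gains among 8 RNA-binding genes, with 78.1% and 67.9% in BDE-47 animals, and 71.3% and 50.5% in controls.

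The limit of 10% fell within a continuous range. Just inside it, Arf6, a small GTPase of membrane traffic, had a control PND65 level of 10.05%, and Gfy and Entpd3 had 10.06% and 10.1%. Just outside, Maea, Zcchc6 and Dcakd had 9.98%, 9.90% and 9.90%. Their age differences in controls were 6.75, 8.26 and 7.83 points inside, and 5.88, 9.98 and 10.1 points outside. In BDE-47 animals these differences were between -1.09 and 0.515 points.

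Genes whose methylation could reveal DNA of other cells in sperm gave little information within the list. Regions were matched to them by gene symbol. Whether they lie on the stretch that is imprinted or differs in the germline is not known. Of 29 symbols of imprinted genes methylated only on the maternal allele, 3 were listed, with 4 regions, and 0 of these were members. Jade1 had 7.45% and 7.78% at PND120 and PND65 in BDE-47 animals and 9.75% and 0.217% in controls at one region, and 8.93% and 8.41% in BDE-47 animals and 13.9% and 0.444% in controls at the other. Trappc9 had 11.6% and 11.5% in BDE-47 animals, and 17.1% and 4.58% in controls. In these regions both BDE-47 levels lay between the control levels. The region listed for Nnat lay outside the gene and had 80.2% and 66.5% at PND120 and PND65 in BDE-47 animals, and 80.2% and 67.0% in controls. Of 16 genes methylated in somatic cells and not in the germline, 2 were listed, and 0 of 6 paternally methylated imprinted genes were. Tdrd6 had 4.35% and 5.23% at PND120 and PND65 in BDE-47 animals, and 7.50% and 0.328% in controls. A region of 154822 bases beside Zfp42 had 40.8% and 42.9% in BDE-47 animals, and 48.4% and 42.3% in controls. The list holds only regions that differed with age, so an unlisted locus gives no level, and the part of other cells in the members' levels was not tested.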

How the data were processed

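Per the labels, reduced representation bisulfite sequencing was applied to sperm DNA of 24 rats. Per the submitters' processing notes, reads were aligned to rn6 with Bismark 0.16.1 and Bowtie2 2.2.9; per the series' design text, duplicates were removed, CpGs with at least 10 reads were kept and regions were called with MethPipe. Per the file headers, a listed age region needed 3 or more CpGs and a q below 0.05. The methylation level is a fraction that the authors deposited as 1 value per group and region, together with a count of CpGs per region and a distance to the gene. The authors' own age differences, a deposited score in points, equal the differences of these levels within 1.42e-14 points. Single-animal columns number 0, so no test, SD or leave-one-out value was possible, and the depth per library is unknown.

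Fractions were multiplied by 100, and members, counts, medians and exact Clopper-Pearson 95% intervals over regions were computed with Python 3.11.15, pandas 2.3.3, numpy 2.4.6 and scipy 1.17.1; figures used matplotlib 3.10.9. Regions are not replicates, and the intervals say nothing of the spread between animals. The steps were tested on simulated data. Coordinates are those of the tables (rn6), in which the first base may be numbered 0 or 1; RefSeq GRCr8 was used for names and start-site windows alone. Named genes were the largest gains and losses in each arm, the largest differences between arms at each age, the highest levels, the most CpGs, genes with several members, up to 3 per family, and regions beside the 10% limit. Lrrc8a, Ripply3 and Bcl9l were added after their values were seen. Some genes that this rule names are not reported here. The members, gene families and classes were chosen with earlier results of these data known.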

Additional observations from a re-analysis of the deposited data

How the results depend on the processing

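The 8 summary values were recomputed under 10 alternatives, giving 66 values; 34 of these moved by less than the interval of the main value. The median BDE-47 age difference, 0.0653 points, changed sign and was -0.251 in regions of at most 1000 bases and -0.277 with a control PND65 level of at least 5%. With at least 30%, at least 5 CpGs and at least 10 CpGs it was 1.57, 0.611 and 1.64 points. The share with a joint gain or joint loss of 5 points or more in both arms, 13.8%, was 5.52% at most 1000 bases, 6.68% at the 5% level, 34.6% at the 30% level, 19.4% and 26.9% with at least 5 and 10 CpGs, and 5.28% and 2.93% with changes of at least 10 and 15 points. The share below control at PND120, 80.9%, was 90.3% at most 1000 bases, 73.8% without a length limit, 86.9% and 66.3% at the 5% and 30% levels, and 73.7% and 71.6% with at least 5 and 10 CpGs. The share above control at PND65, 80.9%, was 88.7% and 72.1% at the 5% and 30% levels. The median BDE-47 minus control difference at PND120, -3.54 points, was -4.05 at most 1000 bases, -4.08 and -2.32 at the 5% and 30% levels, and -2.71 and -2.09 with at least 5 and 10 CpGs. At PND65, 4.46 points, it was 2.78 at the 30% level and 3.76 and 3.46 with at least 5 and 10 CpGs. The median control age difference, 8.62 points, was 8.22 without a length limit and 8.17 and 7.99 with at least 5 and 10 CpGs. The share higher at PND120 in controls, 97.9%, was 95.2% at the 30% level. The limits of 10 and 15 points kept all 341 members and changed only the call. The other alternatives change which regions or values are counted, and no other cause was tested. Taking 1 value per gene, or adding regions within 1000 bases of a gene, moved none of the 8 values beyond the main interval.

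No paired analysis was possible because the deposited tables hold 1 value per group, with no value of a single animal, and for the same reason leaving out single replicates was not run. A level over 3 CpGs rests on few positions, and its error between animals is unknown.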
